A study of Mus musculus with 4 samples.

Results

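Polycomb, DNA methylation and histone modifier genes were followed in muscle stem cells (satellite cells) of the mouse with and without extra DEK, a DNA-binding chromatin protein. The set held 37 genes, chosen by symbol for their known function, of 24328 symbols in the deposited expression table. Earlier results of these data were known when the set was chosen, so its shares beside those of all genes are descriptions only. All 37 had a row. Polyadenylated RNA was sequenced in 4 libraries. The 2 YFP libraries came from 7-month-old Pax7CreERT2/+; ROSA26YFP/+ mice, in which Cre switches on a yellow fluorescent reporter. The 2 DEK libraries came from 4.5-month-old Pax7CreERT2/+; H11DEK-EGFP/+ mice, in which a DEK-EGFP transgene sits at the H11 locus. Both groups thus carried CreERT2, a tamoxifen-activated Cre recombinase, at the Pax7 locus, which restricts recombination to Pax7-expressing cells and their descendants. Mice of both groups were perfused with paraformaldehyde (PFA), so the cells were fixed before their muscle was dissociated and they were sorted. The gate used for the sort is not given in the labels. Age, reporter, locus and DEK all went with the group and cannot be told apart. The number of mice behind a library, their sex and any tamoxifen schedule are not given in the labels.

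Polycomb proteins keep genes silent through marks on histones. Polycomb repressive complex 2 (PRC2) methylates histone H3 through Ezh1 or Ezh2, held together by Eed and Suz12. Polycomb repressive complex 1 (PRC1) binds that mark through Cbx proteins, ubiquitinates histone H2A through Ring1 or Rnf2, and compacts chromatin. DNA methyltransferases and TET dioxygenases add and oxidise methyl groups on cytosine, while histone demethylases, deacetylases, acetyltransferases and nucleosome remodellers change or move the histones. In the satellite cell lineage Ezh2 is known to hold muscle genes silent in proliferating progenitors, and class II deacetylases such as Hdac4 and Hdac5 are known to bind and repress the muscle transcription factor MEF2.

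The values are read as FPKM (fragments scaled to transcript length and to the mapped total), so levels of different genes can be set side by side. A gene was tested when it reached 1 FPKM in at least 2 libraries, which 12179 genes did. Column totals ran from 541183 to 545123 FPKM and 11669 to 12000 genes reached 1 FPKM per library. The table holds no counts, so depth is not known. Dek itself measured 512 and 504 FPKM in YFP against 3196 and 1639.5 FPKM in DEK. All 12 satellite cell markers examined were tested and were above 4 FPKM in every library, with Pax7 between 93.9 and 184 FPKM. Rn45s, the 45S pre-ribosomal RNA, made up 11.8% and 15.7% of all FPKM in YFP against 5.15% and 5.55% in DEK. With Rn45s removed and the columns rescaled, the all-gene median shifted from 0.05 to -0.07 (log2).

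Of the 37 genes, 36 were tested and Dnmt3b was not, since it reached 1 FPKM in 1 library. Setd7 and Hdac5 were lower in DEK, and 0 of 36 were higher, by limma at an adjusted p under 0.05. Over all tested genes 3.21% were called lower and 4.57% higher. With only 36 genes, the counts of 2 lower (5.56%) and 0 higher both lay near these shares. Without the adjustment, at p under 0.05, 8 of 36 were lower (22.2%, against 12.2% of all genes) and 1 was higher (2.78%, against 16.9%). In 15 of 36 both DEK values lay below both YFP values (41.7%, against 26.9% of all genes), and in 6 of 36 both lay above (16.7%, against 34.0%). The median log2 fold change was -0.13 over the 36 and 0.05 over all tested genes. In 29 of 36 the log2 fold change was within 0.5 of 0 (80.6%, against 71.0% of all genes). In 28 of 36 the 95% interval excluded a 2-fold change in either direction, as it did for 8276 of all 12179 genes.

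**Figure D1:**
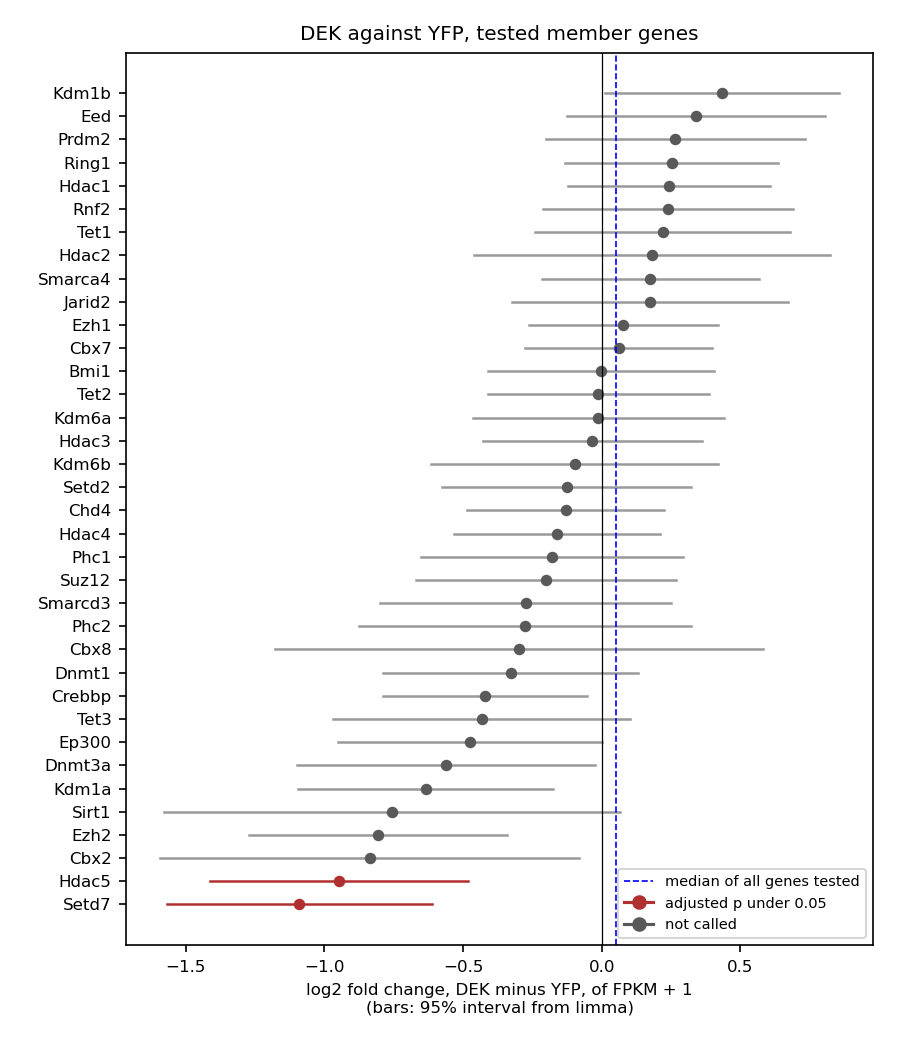
Log2 fold change of the 36 tested genes (x axis, DEK minus YFP, of FPKM + 1; points are limma estimates from 2 libraries per group, bars 95% intervals, dashed line the median of all genes tested). Setd7 and Hdac5 at the bottom are the called genes, at -1.09 and -0.95, and Kdm1b at the top stands at 0.43.

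Setd7, a lysine methyltransferase that acts on histone H3 and on other proteins, measured 8.90 and 9.71 FPKM in YFP against 3.40 and 4.31 FPKM in DEK. Both DEK libraries were below both YFP libraries, and the DEK mean was 41.5% of the YFP mean. This was a log2 fold change of -1.09 with an SE of 0.19 (limma adjusted p = 0.0323). Hdac5, a class II deacetylase, measured 19.6 and 22.8 FPKM in YFP against 9.20 and 11.9 FPKM in DEK. The groups again did not overlap, and the DEK mean was 49.8% of the YFP mean (log2 fold change -0.95, SE 0.19, limma adjusted p = 0.0409). Ezh2, the PRC2 methyltransferase of dividing cells, was next by p. It measured 10.6 and 11.3 FPKM in YFP against 5.16 and 6.59 FPKM in DEK. The groups did not overlap, and the DEK mean was 53.6% of the YFP mean. Its log2 fold change of -0.81 (SE 0.19) missed the threshold (limma adjusted p = 0.0591). It passed where the columns were rescaled, with a limma adjusted p of 0.0451 under TMM factors, 0.0481 under quantile normalization and 0.0445 with Rn45s removed. In bulk RNA, fewer cells of a type and less RNA per cell cannot be told apart.

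Both calls were lost when any 1 library was left out and the same genes were tested. Such fits leave 1 group with 1 library and called far fewer genes over the whole table. The loss is therefore not particular to Setd7 and Hdac5. In those fits the limma adjusted p of Setd7 was 0.104 without YFP replicate 1, 0.156 without YFP replicate 2, 0.200 without DEK replicate 1 and 0.109 without DEK replicate 2. For Hdac5 it was 0.112, 0.196, 0.209 and 0.102 in the same order. The log2 fold changes kept their sign each time, between -0.96 and -1.23 for Setd7 and between -0.78 and -1.12 for Hdac5. With the low filter redone on the 3 libraries left, both were called without DEK replicate 2 (limma adjusted p = 0.0429 for Setd7 and 0.0341 for Hdac5) and neither without any other library. With no filter on low values the limma adjusted p was 0.0867 for Setd7 and 0.0930 for Hdac5. That fit called 293 of 18329 genes (1.6%), against 948 of 12179 (7.78%) with the filter.

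Other features of the DEK libraries moved with these lower values. Of 13 tested genes of myogenic commitment and differentiation 8 were called lower, and the 15 listed genes summed to 1193 and 1211 FPKM in YFP and 345 and 529 FPKM in DEK. Of 14 tested proliferation markers 6 were called lower, and the 15 listed summed to 129 and 119 FPKM against 56.6 and 68.6 FPKM. Endothelial markers moved the other way, with 11 of 14 tested called higher and 16 listed markers at 78.8 and 75.6 FPKM in YFP and 217 and 184 FPKM in DEK. Of those, Kdr, Flt1, Ptprb, Robo4 and Erg were listed at 0 in both YFP libraries and 0 markers were at 0 in DEK. For macrophage and leukocyte markers 7 of 11 tested were called higher, with 14 listed markers at 4.59 and 29.2 FPKM in YFP and 213 and 209 FPKM in DEK. Of those, Adgre1, C1qa, C1qb, C1qc and Tyrobp were at 0 in both YFP libraries. Of 20 immediate early and stress genes 9 were called higher, and their sum went from 1305 and 1160.3 FPKM in YFP to 21919.7 FPKM in DEK replicate 1 and 5172 FPKM in DEK replicate 2. Fibro-adipogenic progenitor markers had 5 of 10 called higher and 2 lower, pericyte and smooth muscle markers 2 of 10 higher, and mature myofibre markers 1 of 5 tested higher. Of the 12 satellite cell markers 1 was called higher. The part of these genes and cells in the values of the chromatin set was not tested. A marker under 1 FPKM in both libraries of 1 group passed the filter only through the other group, which fixed its direction. This holds for every called endothelial marker and for the called macrophage and leukocyte markers except Cd74. It also holds for Pi16 and Myh11 (higher) and for Chrnd, Chrng and Myh8 (lower). For these markers the counts called describe presence and are no test of direction.

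The promoters of these 3 genes are shown because the genes had the lowest p-values of the set. They come from RefSeq on build GRCm38.p6, while the authors aligned to mm9, and run from 250 bases before to 30 bases after the annotated start, 5′ to 3′ on the gene's strand. Capitals mark the motif. The Ezh2 window is chr6:47595001-47595280, that of Setd7 chr3:51560794-51561073 and that of Hdac5 chr11:102230143-102230422, all on the minus strand.
Ezh2: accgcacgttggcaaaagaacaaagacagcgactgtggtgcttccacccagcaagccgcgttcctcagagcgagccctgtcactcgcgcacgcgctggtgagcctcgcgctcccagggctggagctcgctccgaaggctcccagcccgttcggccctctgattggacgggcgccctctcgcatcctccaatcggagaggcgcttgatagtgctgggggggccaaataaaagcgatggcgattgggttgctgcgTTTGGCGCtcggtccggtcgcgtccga
Setd7: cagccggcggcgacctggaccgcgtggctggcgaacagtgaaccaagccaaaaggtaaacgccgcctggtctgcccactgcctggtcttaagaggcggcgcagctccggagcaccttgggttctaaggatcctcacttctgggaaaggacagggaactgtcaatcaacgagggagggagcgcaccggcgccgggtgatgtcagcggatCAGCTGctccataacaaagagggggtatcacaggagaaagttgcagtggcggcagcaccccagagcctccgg
Hdac5: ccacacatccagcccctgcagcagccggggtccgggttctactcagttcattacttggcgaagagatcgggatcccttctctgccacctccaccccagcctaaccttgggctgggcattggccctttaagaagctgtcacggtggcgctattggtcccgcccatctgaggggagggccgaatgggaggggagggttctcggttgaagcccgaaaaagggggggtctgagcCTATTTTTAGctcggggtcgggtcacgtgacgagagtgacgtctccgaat
The Ezh2 window holds the E2F motif TTTGGCGC just after the start. The Setd7 window holds the E-box CAGCTG, 42 bases before the start, and the Hdac5 window holds a MEF2 motif 20 bases before it. In each of these windows the other motifs searched were not found. CAGCTG was the only E-box searched, so other E-boxes may be present.

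The motifs were picked after the letters had been seen and were then searched on both strands in all windows. RefSeq windows matched 32 of the 37 genes by symbol, in 40 windows. An E2F motif (TTTGGCGC, TTTCCCGC, TTTCGCGC or TTTGCCGC) was in 3 of the 40 (7.5%), those of Dnmt1, Ezh2 and Suz12, and in 2.12% of all 32851 windows. CAGCTG, which reads the same on both strands, was in 7 of the 40 (17.5%) and in 14.9% of all windows. The MEF2 motif was in 1 of the 40 (2.5%) and in 0.536% of all windows. The set's windows were rich in CG dinucleotides, with a median of 26 per window against 6 over all windows. Every E2F motif searched contains CG, and the shares above are not matched for CG content. Dnmt1 and Suz12, where an E2F motif was also found, had log2 fold changes of -0.33 and -0.20, and neither was called. In Suz12 the motif lies on the gene's strand, as in Ezh2, and in Dnmt1 it lies on the other strand. Whether its letters match those in Ezh2 was not compared. These matches describe letters and show no binding.

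The catalytic subunits of PRC2 differed in level. Ezh1, the methyltransferase of resting and differentiated cells, was the most abundant gene of the set at 71.7 and 79.1 FPKM in YFP and 83.4 and 75.9 FPKM in DEK. Its groups overlapped, and its log2 fold change was 0.08 (95% interval -0.26 to 0.42). Every library had more Ezh1 than Ezh2. The ratio of Ezh1 to Ezh2 was 6.73 and 7.02 in YFP and 16.2 and 11.5 in DEK, higher in both DEK libraries, a difference of 0.99 on the log2 scale that ran from 0.75 without DEK replicate 1 to 1.23 without DEK replicate 2. A ratio taken within a library is not changed by rescaling its column.

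The remaining PRC2 genes were not called. Eed, the subunit that binds the finished mark, stood at 16.4 and 16.9 FPKM in YFP and 18.3 and 24.8 FPKM in DEK. Both DEK values were higher, with most of the gap in DEK replicate 2 (log2 fold change 0.34, SE 0.19, limma adjusted p = 0.286). Suz12, the scaffold, stood at 5.54 and 4.84 FPKM in YFP and 4.11 and 4.66 FPKM in DEK. Jarid2, which helps recruit PRC2 to DNA, ran from 22.6 to 32.6 FPKM over the 4 libraries with overlapping groups.

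**Figure D2:**
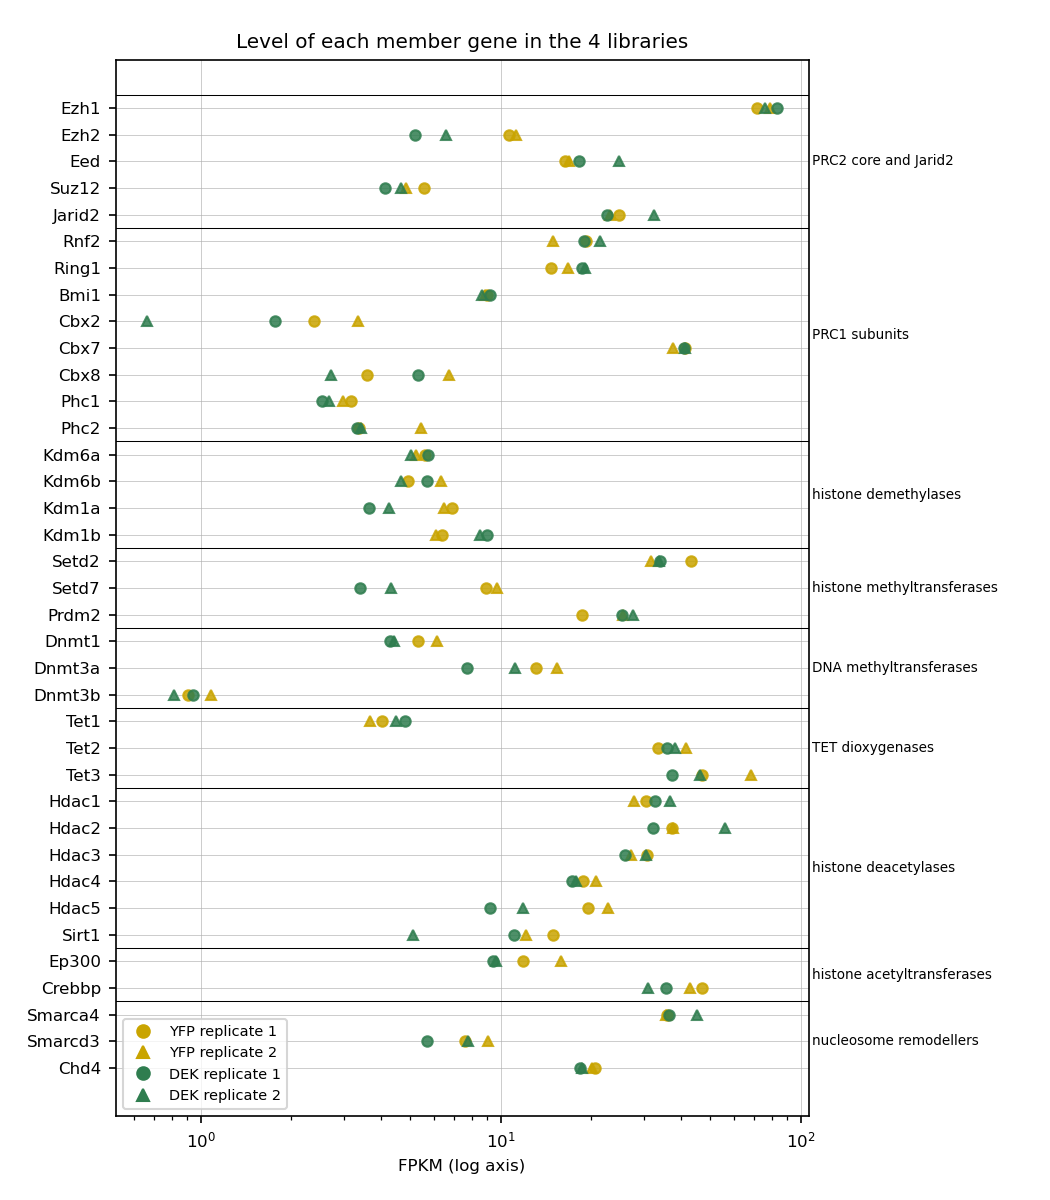
FPKM of each of the 37 genes in each library (x axis, log scale; yellow YFP, green DEK, circles replicate 1, triangles replicate 2), grouped by role. Ezh1 stands at 71.7 to 83.4 FPKM at the top, Dnmt3b at 0.815 to 1.09 FPKM is the lowest by mean. Of the 36 tested genes, DEK lies below YFP without overlap in 15 (41.7%, against 26.9% of all tested genes). It lies above YFP in 6 (16.7%, against 34.0%).

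PRC1 has interchangeable Cbx, Ring and Phc subunits, and these were expressed at very different levels. Cbx7, a mark-binding subunit, was the most abundant of the 8 PRC1 genes of the set, at 41.1 and 37.6 FPKM in YFP and 40.8 and 41.3 FPKM in DEK, values that overlapped. Cbx2, its counterpart with chromatin-compacting activity, was at 2.39 and 3.34 FPKM in YFP and 1.77 and 0.662 FPKM in DEK. All values of Cbx2 were lower in DEK, but the spread between DEK replicates was wide (log2 fold change -0.84, SE 0.31, limma adjusted p = 0.144). The ratio of Cbx7 to Cbx2 was 17.2 and 11.2 in YFP and 23.0 and 62.4 in DEK, and the log2 difference of 1.45 became 0.73 without DEK replicate 2 and 2.17 without DEK replicate 1. Cbx8 ran from 2.72 to 6.73 FPKM and its replicates differed by more than its groups.

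No gene of the PRC1 core was called. Bmi1, which activates the Ring ligases, stood at 9.02 and 8.89 FPKM in YFP and 9.22 and 8.68 FPKM in DEK, a log2 fold change of 0.00 with a 95% interval of -0.41 to 0.41. The ligase Rnf2 ran from 14.9 to 21.5 FPKM with overlapping groups. Its partner Ring1 stood at 14.7 and 16.8 FPKM in YFP and 18.7 and 19.2 FPKM in DEK, without overlap and without a call (limma adjusted p = 0.333). The polyhomeotic genes Phc1 and Phc2, which let PRC1 oligomerise, lay between 2.53 and 5.41 FPKM in all libraries. Of 8 PRC1 genes 0 were called, against 7.78% of all genes. At an unadjusted p under 0.05 by limma 1, Cbx2, was lower (12.5%, against 12.2% of all genes). With 8 genes these counts cannot be told from the background.

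Of the histone demethylases, Kdm6a and Kdm6b remove the PRC2 mark. Kdm6a stood at 5.59 and 5.24 FPKM in YFP and 5.70 and 5.03 FPKM in DEK, and Kdm6b at 4.92 and 6.32 FPKM in YFP and 5.70 and 4.65 FPKM in DEK. Both overlapped between groups, and the ratio of Kdm6a to Kdm6b stayed between 0.829 and 1.14 in all libraries. Kdm1a (LSD1), which removes methyl groups from H3 lysines, stood at 6.89 and 6.46 FPKM in YFP and 3.64 and 4.26 FPKM in DEK. Its DEK mean was 59.2% of the YFP mean, and it missed the call (log2 fold change -0.64, SE 0.19, limma adjusted p = 0.0933).

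Kdm1b (LSD2) went the other way from its relative Kdm1a. It stood at 6.36 and 6.10 FPKM in YFP and 9.04 and 8.51 FPKM in DEK, with both DEK values above both YFP values (log2 fold change 0.43, SE 0.17, limma adjusted p = 0.163). It was the only one of the 36 genes higher at an unadjusted p under 0.05. That p was above 0.05 with TMM factors, quantile normalization, Rn45s removed, the replicate block or any 1 library left out. In the GENCODE M21 annotation on GRCm38, 505 exonic bases of Kdm1b overlap Dek on the other strand, and the counting is not stated to use strand. The value of Kdm1b is therefore uncertain, and the part of Dek reads in it was not tested. Exons of 13 of the 37 genes overlap a gene on the other strand there. Besides Kdm1b these are Cbx7, Rnf2 and Smarcd3, which overlap a protein-coding gene, and Setd7 (131 bases), Ezh2 (174 bases), Hdac4 (3536 bases), Dnmt3a, Eed, Kdm6b, Sirt1, Suz12 and Tet2, which overlap non-coding ones. The values and ratios of these genes are uncertain too. The size of that doubt is not known, since the levels of the genes opposite them were not examined.

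Besides Setd7, the histone methyltransferases were Setd2, which marks transcribed gene bodies, and Prdm2, a PR domain protein linked to satellite cell quiescence. Setd2 stood at 43.2 and 31.8 FPKM in YFP and 34.1 and 33.7 FPKM in DEK, within the spread of the YFP replicates. Prdm2 stood at 18.7 and 25.6 FPKM in YFP and 25.5 and 27.7 FPKM in DEK, and its groups overlapped (log2 fold change 0.27, 95% interval -0.20 to 0.73).

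Of the 2 DNA methyltransferases tested 0 were called, with Dnmt3a lower at an unadjusted p under 0.05. Over all genes 7.78% were called and 12.2% were lower at that p, and 2 genes are too few to compare. Dnmt3a, the main de novo enzyme here, stood at 13.1 and 15.4 FPKM in YFP and 7.72 and 11.2 FPKM in DEK. The groups did not overlap, with the lowest value in DEK replicate 1 (log2 fold change -0.56, SE 0.22, limma adjusted p = 0.159). Dnmt1, which copies methylation after replication, stood at 5.29 and 6.13 FPKM in YFP and 4.26 and 4.41 FPKM in DEK (log2 fold change -0.33, SE 0.19, limma adjusted p = 0.297). Dnmt3b was at 0.904 and 1.09 FPKM in YFP and 0.945 and 0.815 FPKM in DEK. Each library thus held 8.16 to 14.5 times as much Dnmt3a as Dnmt3b, and 1.81 to 2.53 times as much Dnmt3a as Dnmt1. The ratio of Dnmt3a to Dnmt3b was 14.5 and 14.1 in YFP and 8.16 and 13.7 in DEK. It was lower in both DEK libraries, by a narrow margin in DEK replicate 2.

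TET dioxygenases start the removal of DNA methylation, and Tet2 and Tet3 were above every DNA methyltransferase in every library. Tet3 was the second most abundant gene of the set by mean, at 46.8 and 68.1 FPKM in YFP and 37.3 and 46.3 FPKM in DEK. DEK values were below YFP values by a narrow margin, and the YFP replicates were far apart (log2 fold change -0.43, SE 0.22, limma adjusted p = 0.246). Tet2 stood at 33.4 and 41.6 FPKM in YFP and 35.9 and 38.0 FPKM in DEK and overlapped. The ratio of Tet2 to Tet3 was 0.713 and 0.611 in YFP and 0.962 and 0.822 in DEK, higher in both DEK libraries and below 1 throughout. Tet1 was the lowest of the family at 3.67 to 4.81 FPKM.

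**Figure D3:**
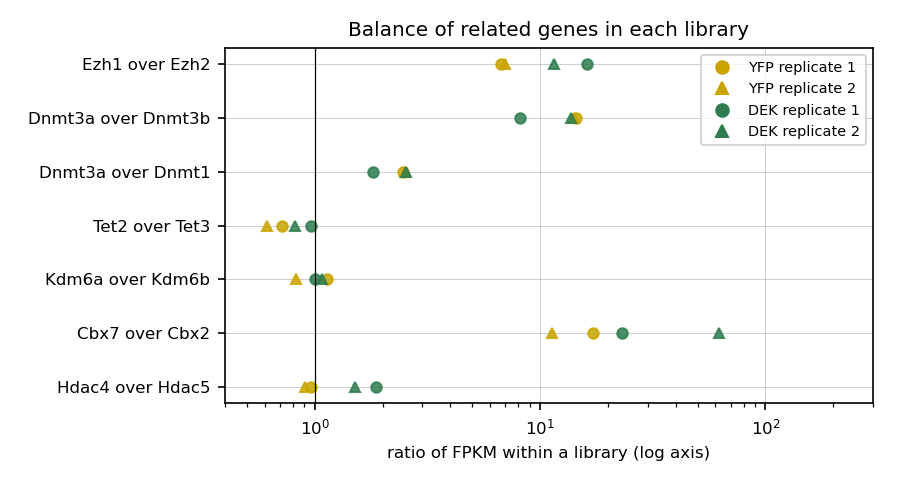
Ratio of FPKM between 7 pairs of related genes within each library (x axis, log scale; yellow YFP, green DEK, circles replicate 1, triangles replicate 2; the vertical line marks equal levels). Ezh1 over Ezh2, Hdac4 over Hdac5, Cbx7 over Cbx2 and Tet2 over Tet3 are higher in both DEK libraries. Dnmt3a over Dnmt3b is lower in both. Kdm6a over Kdm6b overlaps around 1, and Dnmt3a over Dnmt1 overlaps as well. For single genes, 34.0% of all tested lie above and 26.9% below without overlap. The share for ratios of gene pairs was not computed.

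Hdac4, the class II relative of Hdac5, was not called. It stood at 18.9 and 20.7 FPKM in YFP and 17.3 and 17.9 FPKM in DEK (log2 fold change -0.16, 95% interval -0.53 to 0.21, limma adjusted p = 0.517). The ratio of Hdac4 to Hdac5 was 0.964 and 0.910 in YFP and 1.88 and 1.50 in DEK, a log2 difference of 0.84 that was lowest at 0.68, without DEK replicate 1. Hdac4 was thus the less abundant of the pair in both YFP libraries and the more abundant in both DEK libraries. The difference between their fold changes was not tested.

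Hdac1, Hdac2 and Hdac3, class I deacetylases that work in repressor complexes, were not called. Hdac1 stood at 30.5 and 27.8 FPKM in YFP and 32.7 and 36.7 FPKM in DEK (limma adjusted p = 0.328). Hdac2 had 37.1 and 37.5 FPKM in YFP, while DEK replicates 1 and 2 fell on either side of them at 32.1 and 56.0 FPKM. Hdac3 ran from 25.9 to 30.7 FPKM with overlapping groups. Sirt1, a NAD-dependent deacetylase linked to satellite cell quiescence, stood at 14.9 and 12.2 FPKM in YFP and 11.1 and 5.10 FPKM in DEK. Most of its difference lay in DEK replicate 2 (log2 fold change -0.76, SE 0.34, limma adjusted p = 0.199).

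The paired acetyltransferases p300 and CBP, coactivators of many transcription factors, were both lower in DEK without a call. Crebbp stood at 46.8 and 42.8 FPKM in YFP and 35.6 and 30.9 FPKM in DEK (log2 fold change -0.42, SE 0.15, limma adjusted p = 0.134). Ep300 stood at 11.8 and 15.8 FPKM in YFP and 9.45 and 9.68 FPKM in DEK (log2 fold change -0.48, SE 0.19, limma adjusted p = 0.172). In both genes the groups did not overlap.

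Of the 3 nucleosome remodellers 0 were called, also at an unadjusted p under 0.05. Over all genes 7.78% were called, with 12.2% lower and 16.9% higher at that p, and 3 genes are too few to compare. The SWI/SNF ATPase Smarca4 (BRG1) stood at 35.7 and 35.6 FPKM in YFP and 36.3 and 45.0 FPKM in DEK. The muscle-enriched SWI/SNF subunit Smarcd3 (BAF60c), which acts with MyoD, ran from 5.70 to 9.05 FPKM and overlapped. The NuRD ATPase Chd4 stood at 20.6 and 20.1 FPKM in YFP and 18.3 and 18.7 FPKM in DEK (log2 fold change -0.13, 95% interval -0.49 to 0.23).

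By mean level over the 4 libraries Ezh1 led at 77.5 FPKM, and its lowest value was above the highest of Tet3. Tet3 (49.6 FPKM), Hdac2 (40.7), Cbx7 (40.2), Crebbp (39.0), Smarca4 (38.2), Tet2 (37.2) and Setd2 (35.7) followed with overlapping ranges. At the low end Cbx2 (2.04 FPKM) and Dnmt3b (0.937 FPKM) overlapped as well. The 37 genes summed to 698 and 731 FPKM in YFP and 646 and 708 FPKM in DEK, between 0.118% and 0.135% of the column totals. With Rn45s left out of the totals the share was 0.146% and 0.160% in YFP and 0.125% and 0.138% in DEK. Both DEK shares then lay below both YFP shares.

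A further 181 chromatin genes, listed by complex or mark, gave the surroundings of the set. Of 173 tested, 1 was called higher (0.578%) and 3 lower (1.73%), both below the shares of all genes given above, and the median log2 fold change was -0.05. Ing5, a reader of methylated H3 found in acetyltransferase complexes, was the gene called higher, from 14.7 and 11.6 FPKM in YFP to 26.7 and 23.7 FPKM in DEK (log2 fold change 0.89, SE 0.18, limma adjusted p = 0.0414). Hdac7, another class II deacetylase, went from 11.1 and 9.87 FPKM to 3.25 and 3.28 FPKM (log2 fold change -1.43, SE 0.18, limma adjusted p = 0.0142). Gatad2b, a NuRD subunit, went from 11.2 and 11.4 FPKM to 3.95 and 5.48 FPKM (log2 fold change -1.12, SE 0.20, limma adjusted p = 0.0345). Uhrf1, which brings Dnmt1 to newly replicated DNA, went from 3.31 and 2.92 FPKM to 0.328 and 0.959 FPKM (log2 fold change -1.35, SE 0.26, limma adjusted p = 0.038). Uhrf1 was under 1 FPKM in both DEK libraries and passed the filter only through YFP, which fixed its direction. In each of these 4 genes the groups did not overlap. All 4 calls were lost with no filter on low values (limma adjusted p from 0.0555 for Hdac7 to 0.0937 for Uhrf1). They were also lost when any 1 library was left out and the same genes were tested. Both kinds of fit called far smaller shares of all genes than the fit with all 4 libraries and the filter. Ing5 also missed the threshold with Rn45s removed (0.0508), without the variance trend (0.0533) and with the replicate block (limma adjusted p = 0.0525). Uhrf1 missed it with an added value of 0.1 (0.0631) and with the block (limma adjusted p = 0.0563). The lists they come from had medians of -0.27 over 20 tested acetylation genes (Ing5), 0.06 over 24 tested deacetylase and corepressor genes (Hdac7 and Gatad2b) and -0.01 over 11 tested DNA methylation genes (Uhrf1).

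Lists without a call are given by the gene of smallest p. Among 6 tested accessory PRC2 genes it was E130012A19Rik (Epop), which links PRC2 to elongin, from 0.614 and 1.10 FPKM to 2.84 and 1.80 FPKM (limma adjusted p = 0.107). Among 18 tested PRC1-linked genes it was Cbx6, another Cbx subunit, from 22.7 and 26.1 FPKM to 13.7 and 17.8 FPKM (limma adjusted p = 0.0997). Among 20 tested genes of H3K4 methylation it was the methyltransferase Setd1b, from 12.5 and 11.6 FPKM to 6.79 and 7.60 FPKM (limma adjusted p = 0.0676). Among 18 tested genes of H3K9 methylation it was the demethylase Kdm4c, from 13.0 and 11.9 FPKM to 16.9 and 16.8 FPKM (limma adjusted p = 0.152). In the 21 tested genes of other lysine and arginine methylation it was the methyltransferase Smyd2, from 16.6 and 13.8 FPKM to 24.1 and 26.1 FPKM (limma adjusted p = 0.0608). Among 35 tested remodeller subunits it was Baz1a, of the ISWI type, from 9.08 and 9.29 FPKM to 4.62 and 5.19 FPKM (limma adjusted p = 0.0527). Their differences went in both directions, and none passed the threshold.

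**Figure D4:**
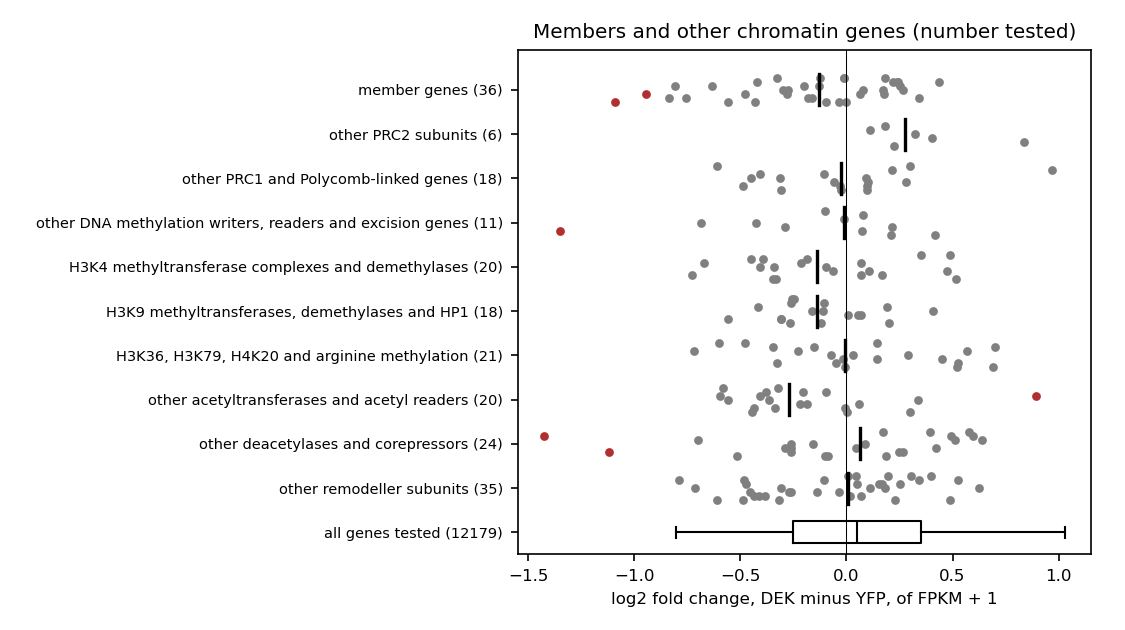
Log2 fold change (x axis, DEK minus YFP, of FPKM + 1) of the tested genes of the set and of 9 lists of other chromatin genes. Points are genes (red, adjusted p under 0.05), vertical bars medians, and the box shows the quartiles and median of all tested genes with whiskers at the 5th and 95th percentiles. The set's median of -0.13 lies left of the median of all genes at 0.05, and 4 of 173 genes in the other lists are red.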

How the data were processed

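Polyadenylated RNA of sorted, fixed muscle stem cells was sequenced in 4 libraries, grouped by their titles. The submitters' processing notes name STAR (2.5.3a), StringTie (1.3.3), R (3.4.1) and mm9 as tools and build of the authors. The annotation, settings and filters are not given in the sources used here. The deposited table holds 1 value per symbol and library, read as FPKM made by the authors. That unit is inferred, and TPM over part of an annotation cannot be told apart from it. Depth is unknown.

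DEK was compared with YFP on log2(FPKM + 1) with limma 3.58.1 in R 4.3.3 (empirical Bayes with variance trend, no covariates, two-sided, Benjamini-Hochberg adjustment over 12179 genes, call at an adjusted p under 0.05), checked on simulated data. A fold change on this scale understates low genes. Nothing says whether replicates are separate animals, so a p-value here reflects only how far these libraries spread, which may be technical. Tables and promoter windows were handled in Python 3.11.15. Named were called genes, the extremes of the set, 7 pairs of related genes and the smallest p of each wider list. Genes, lists and this rule were chosen with earlier results of these data known. Alternatives were other added values, filters, scalings, variance models and thresholds, the replicate block and each library left out.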

Additional observations from a re-analysis of the deposited data

How the results depend on the processing

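The 2 lower calls of the set, Setd7 and Hdac5, both remained with an added value of 0.1 or 5, with a filter at 5 FPKM, with TMM, quantile or Rn45s-free scaling, with robust estimation and with the replicate number as a block. The count of members called lower was 0 with no filter, 1 without the variance trend (Setd7, with Hdac5 lost at a limma adjusted p of 0.0505) and 4 at an adjusted p under 0.1 (with Ezh2 and Kdm1a), and 0 to 2 with a library left out. Leave-one-out fits with the low filter redone on the 3 libraries left called 2 members, the same genes, without DEK replicate 2 and 0 without any of the other libraries. All these settings called 0 members higher. The members' median was -0.26 with Rn45s removed, which moved the median of all genes from 0.05 to -0.07. Relative to that median it was -0.18 in the report's fit, -0.19 with Rn45s removed, and between -0.09 and -0.22 over all settings. The share of higher genes among all calls was 58.8%, 51.0% with TMM factors, 45.4% with quantile normalization and 43.2% with Rn45s removed.

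Of the other chromatin genes, 3 were called lower in the report's fit, 0 with no filter, 7 with TMM factors or with Rn45s removed, 6 with quantile normalization, 5 with robust estimation, 10 at an adjusted p under 0.1 and 0 to 4 with a library left out. The 1 called higher became 0 with no filter, without the trend, with Rn45s removed and with the replicate block, 8 at an adjusted p under 0.1, and 0 to 2 with a library left out. The cause of these moves was not tested.

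The replicate numbers are not stated to pair the libraries. The deviations of the first replicates of both groups correlated at 0.0635 across genes. The replicate block called 618 genes against 948 without it, of which 2 were members (Setd7, adjusted p = 0.0482, and Hdac5, 0.0496).

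Of 643 single values recomputed, 587 kept direction and call and 36 reversed, in 11 genes with a log2 fold change of at most 0.30 in size and no call. Ezh1 and Cbx7 turned to -0.00398 and -0.00492 with quantile normalization and to -0.0543 and -0.0690 with Rn45s removed. With a library left out the values ran from -0.0408 to 0.0379 for Bmi1, -0.0895 to 0.0638 for Kdm6a, -0.34 to 0.0889 for Setd2, -0.15 to 0.0833 for Hdac3, -0.00113 to 0.13 for Cbx7, -0.68 to 0.0826 for Cbx8, -0.25 to 0.0561 for Kdm6b, -0.17 to 0.14 for Tet2, -0.0794 to 0.43 for Jarid2 and -0.21 to 0.57 for Hdac2. Reversed values inside those ranges were 0.00825 for Bmi1, 0.0265 for Kdm6a and 0.0512 for Hdac3 without YFP replicate 1, 0.0801 for Cbx8 without YFP replicate 2, 0.0275 for Tet2 without DEK replicate 1 and 0.0246 for Kdm6b without DEK replicate 2.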

Other observations

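The labels do not give the sex of the mice. Kdm5d, a Y-linked H3K4 demethylase, stood at 8.31 and 5.32 FPKM in YFP and 10.02 and 7.67 FPKM in DEK, and Uty, the Y-linked relative of Kdm6a, at 4.07 and 3.67 FPKM in YFP and 6.84 and 5.23 FPKM in DEK. Xist was between 0.0786 and 0.384 FPKM. Transcripts of both Y-linked genes were thus present in every library. Uty and Xist were chosen after their values were seen. Dnmt3l, the catalytically inactive relative of the DNA methyltransferases, was listed at 0 in YFP replicate 2 and DEK replicate 1 and at 0.00320 and 0.00340 FPKM in the other libraries. Rybp, a PRC1 subunit, was between 0.118 and 0.369 FPKM.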
